A study of Mus musculus with 6 samples.

Results

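The genes of ubiquitin-conjugating enzymes (E2 enzymes, symbols starting Ube2) and of ubiquitin-specific proteases (USP enzymes, symbols starting Usp and a digit) were examined in primary mouse liver sinusoidal endothelial cells under cyclic hydrostatic pressure. Members were chosen by symbol alone, with Usp18 and Usp9y left out, which gave 91 of the 24421 listed symbols, 37 Ube2 and 54 Usp. The symbol rule also takes in genes of another kind. Ube2cbp encodes a ubiquitin ligase that binds an E2 enzyme, Usp6nl encodes a GTPase-activating protein for Rab proteins, and the Usp39 product, a splicing factor, lacks deubiquitinase activity. All 6 samples were liver endothelial cells of wild genotype under 1 batch label, picked with CD146 beads, kept on collagen I overnight and then without serum for 6 h. The 3 pressure samples next received cycles from 101 to 135 kPa, as absolute pressure, at a frequency of 0.01 Hz over 8 h. The 3 control samples carry no label for time or handling over those hours, so a difference in culture or handling cannot be told apart from pressure. Whether samples of a group came from separate animals or cultures is not labelled. The p-values therefore measure the spread among these 6 samples, which may be technical.

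Ubiquitin is activated by an E1 enzyme, passed to the active-site cysteine of an E2 enzyme, and joined to a substrate with the help of an E3 ligase. The E2 enzyme often sets the type of chain: K48-linked chains direct a protein to the proteasome, and K63-linked chains serve signalling, endocytosis and DNA repair. Some E2 enzymes carry ubiquitin-like proteins such as NEDD8 or ISG15 in place of ubiquitin. USP enzymes, the largest class of deubiquitinases, cut ubiquitin off substrates or take chains apart, and so recycle ubiquitin and oppose the ligases.

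Library totals lay between 12922959 and 17675569 counts under pressure and between 13986286 and 18655749 in controls, and 12892 genes had enough counts for testing. Levels are counts relative to TMM-scaled library sizes (CPM), unless TPM, which also divides by transcript length, is named. Log2 changes are pressure over control with the standard error (SE) from edgeR's quasi-likelihood test. A gene is said to rise or fall where its Benjamini-Hochberg adjusted p over all 12892 genes was under 0.05. By that rule 68.8% of all genes changed, 33.7% higher and 35.1% lower under pressure. Endothelial identity was checked with 14 marker genes, all detected, of which 10 fell and 0 rose. Their summed level by library totals was 5626 to 6473 CPM under pressure and 8948 to 9495 CPM in controls. On the same scale, 12 Kupffer cell and macrophage markers (2 rose and 3 fell) summed to 4996 to 5648 CPM under pressure and 6234 to 6805 CPM in controls. The 10 hepatocyte markers summed to 14.3 to 19.01 CPM under pressure and 10 to 12.97 CPM in controls, with Tat at 0. The 10 stellate and mural markers summed to 156 to 167 CPM under pressure and 159 to 172 CPM in controls. The 10 lymphocyte and NK cell markers (2.36 to 4.25 CPM under pressure, 3.89 to 4.29 CPM in controls) and the 6 cholangiocyte markers (16.6 to 18.3 CPM under pressure, 10.99 to 13.01 CPM in controls) were low. With TMM factors, a scaling of these sums chosen after the data were seen, the groups stayed apart for endothelial markers (lower under pressure) and for hepatocyte and cholangiocyte markers (higher under pressure). On that scale the macrophage sums overlapped (5494 to 5973 CPM under pressure, 5756 to 6336 CPM in controls), and the stellate and mural sums, which overlap by library totals, were higher under pressure (165 to 183 CPM under pressure, 148 to 159 CPM in controls). Marco and Cd5l made up most of the macrophage sum. By library totals Cd5l had 1608 to 1855 CPM under pressure and 2645 to 2818 CPM in controls. Marco had 2026 to 2349 CPM under pressure and 2028 to 2212 CPM in controls. Under pressure the macrophage sums by library totals were nearly as large as the endothelial sums. Dcn made up most of the stellate and mural sum, and of 9 genes tested in that list 1 rose and 2 fell. Of 3 hepatocyte genes tested 2 rose and 0 fell, and Alb made up most of that sum. Of 4 cholangiocyte genes tested 3 rose and 0 fell, and Spp1 and Cftr made up most of that sum. The summed levels of endothelial, hepatocyte and cholangiocyte markers thus moved with the groups under both scalings. The part of cell composition in the results on ubiquitin genes was not tested. In bulk RNA, fewer cells of a type and less RNA per cell cannot be told apart.

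Of the 91 members, 75 passed the low-count filter. Among them 45 were higher under pressure (60%), 10 were lower (13.3%) and 20 did not pass, and the median log2 change was 0.35, against -0.02 over all tested genes. Of the 32 tested Ube2 genes 22 rose and 2 fell, and their median was 0.42. Of the 43 tested Usp genes 23 rose and 8 fell, and their median was 0.31. At least 2-fold rises were seen in 13 of the 75 tested members, against 9.64% of all genes. Only 1 of the 75, Usp21, fell as much, against 13.7% of all genes. All pressure samples lay above all controls in 45 of the 75 (against 34.9% of all genes) and below in 13 (against 37% of all genes). Members that passed the filter only through the group where they were high had to differ, so these counts describe the tested members alone.

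**Figure D1:**
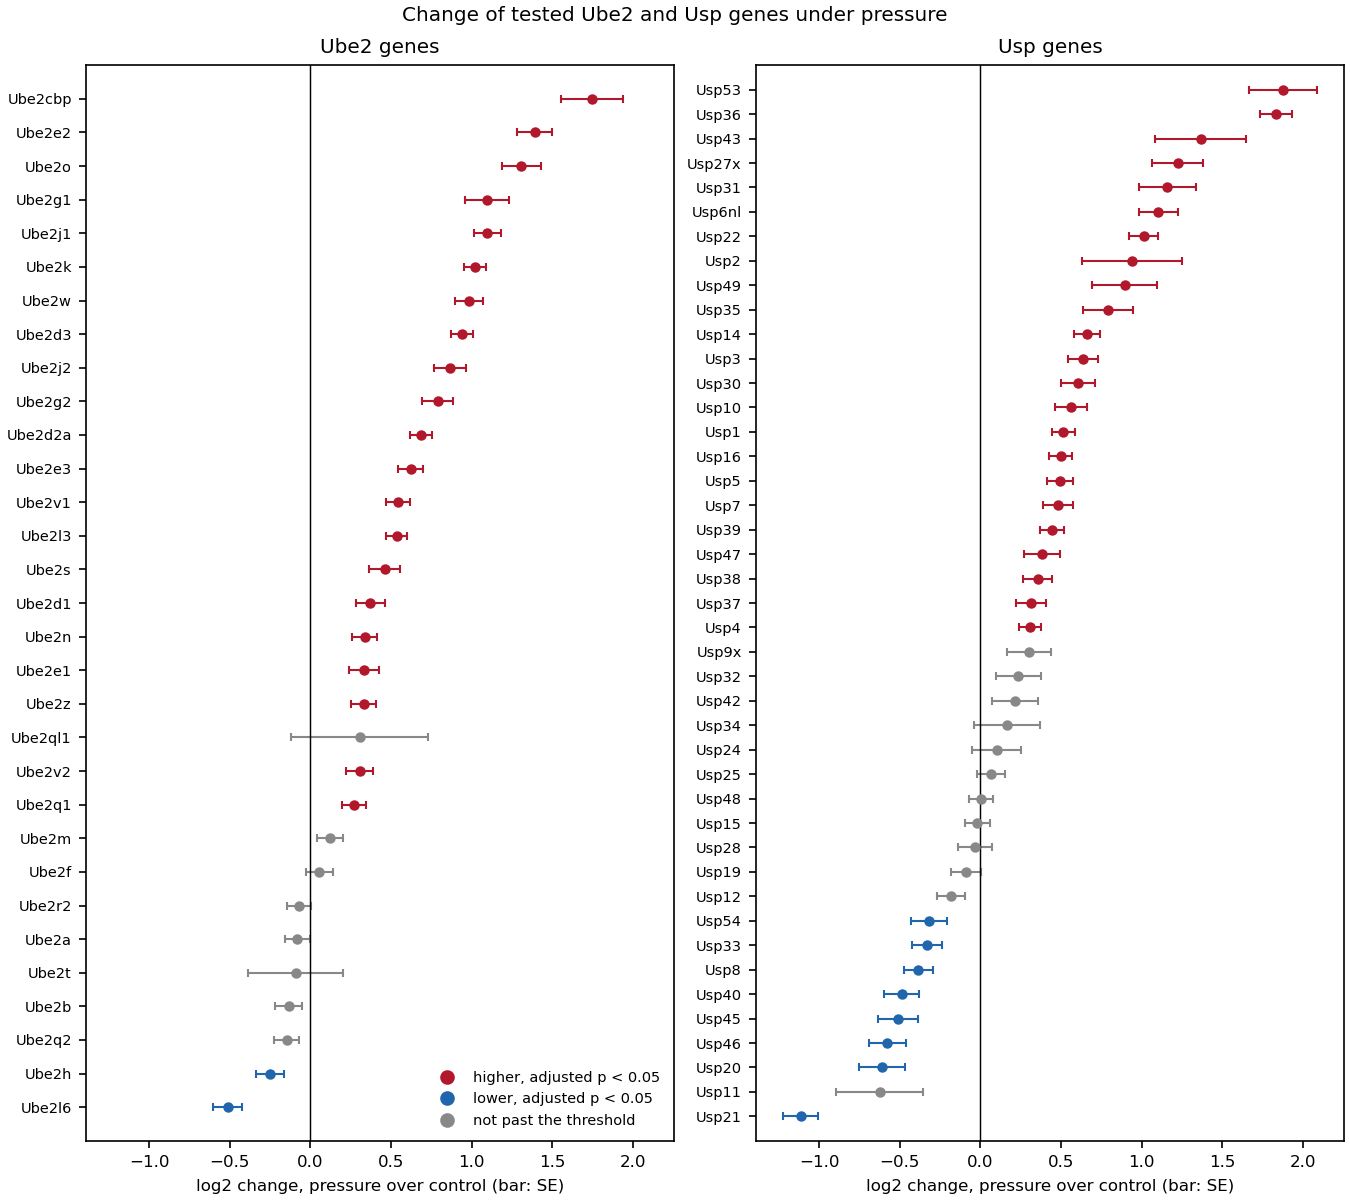
Log2 change, pressure over control, of the tested members reported here, with Ube2 genes on the left and Usp genes on the right. Points are estimates and bars their SE (edgeR, n = 3 per group), coloured by whether the gene rose, fell or did not pass an adjusted p of 0.05, and most lie right of 0, between Usp21 at -1.12 and Usp53 at 1.88.

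Library scaling shifts every change by nearly the same amount. With library totals and no composition factor the median of all genes moved by -0.21, and with upper-quartile factors by -0.11. With library totals 16 Ube2 genes were higher and 6 lower, and 18 Usp genes were higher and 13 lower, while over all genes 24.3% were higher and 45.7% lower. Higher genes then made up 72.7% of the called Ube2 genes and 58.1% of the called Usp genes, whereas with TMM factors these shares were 91.7% and 74.2%. Over all called genes the share was 34.7% with library totals and 49% with TMM factors. Calls in the same direction under all 4 scalings (TMM, RLE, upper quartile and library totals) were 16 rises and 2 falls among the 32 tested Ube2 genes. They were 18 rises and 8 falls among the 43 tested Usp genes, and 3129 rises and 4392 falls among all 12892 tested genes.

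**Figure D2:**
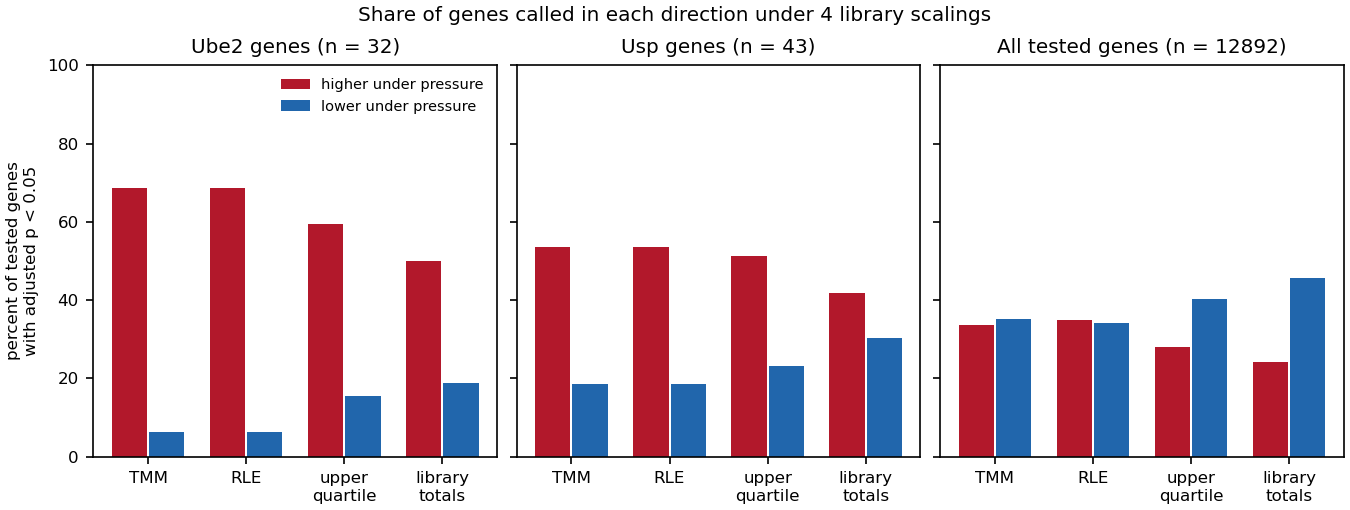
Percent of tested genes past an adjusted p of 0.05, higher or lower under pressure, for Ube2 genes, Usp genes and all tested genes under 4 library scalings. Rises outnumber falls for Ube2 and Usp genes under each of the 4 scalings, whereas over all genes falls outnumber rises under 3 of them, RLE being the exception.

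Per length, Ube2d3, a broad partner of RING ligases, was among the most abundant E2 genes, at 490.1 ± 43.8 TPM under pressure and 295 ± 12.4 TPM in controls (SD, n = 3 each). After it by the mean over all samples came Ube2v1, Ube2b and Ube2l3, with Ube2b at 154 ± 11.6 TPM under pressure and 194 ± 7.87 TPM in controls. Usp genes were less abundant per length. Usp4 had 94.2 ± 2.53 TPM under pressure and 87.8 ± 4.26 TPM in controls, and Usp7 had 95.3 ± 13.7 TPM under pressure and 78.5 ± 4.403 TPM in controls. The order of Usp4 and Usp7 was thus within their spread, and Usp5, Usp14 and Usp19 followed. TPM has no composition factor, so it orders genes here and does not compare groups.

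All 7 tested partners of RING ligases rose. Role groups here and below are small, and over all genes 33.7% rose and 35.1% fell. Ube2d3 had 649, 688 and 609.5 CPM under pressure and 337, 332 and 347 CPM in controls (log2 change 0.94 ± 0.07, adjusted p = 1.17e-06). Every pressure value exceeded every control value by a wide margin. Ube2e2, a low-abundance relative, had 15.8, 16.1 and 15.4 CPM under pressure and 6.095, 5.87 and 6.08 CPM in controls (1.39 ± 0.11, adjusted p = 1.71e-06). The replicates of each group were nearly equal for this gene. Ube2w, which attaches ubiquitin to the amino terminus of proteins, rose by 0.98 ± 0.09. Ube2d2a (0.68), Ube2e3 (0.62), Ube2d1 (0.37) and Ube2e1 (0.33) rose less, and the calls of Ube2d1 and Ube2e1 were lost with library totals. Ube2e1 also missed the threshold with upper-quartile factors (adjusted p = 0.0697) and without control replicate 1 (adjusted p = 0.0561).

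The 4 E2 genes whose products serve degradation at the endoplasmic reticulum also rose, where 33.7% of all genes rose. Ube2j1, anchored in the membrane of the endoplasmic reticulum, had 161, 162 and 140.2 CPM under pressure and 74.8, 68.6 and 73.3 CPM in controls (1.10 ± 0.09, adjusted p = 1.61e-06). Ube2g1 had 106, 108 and 76.9 CPM under pressure and 41.9, 42.6 and 51.9 CPM in controls (1.10 ± 0.14, adjusted p = 4.24e-05). Groups were apart in both genes, and pressure replicate 3 was the lowest pressure sample. Ube2j2, also membrane-anchored, rose by 0.86 ± 0.10 and Ube2g2, a partner of the ligases of this pathway, by 0.79 ± 0.09. In these 2 genes pressure replicate 3 was the highest pressure sample.

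The K48-linked chain builders differed. Ube2k (chromosome 5, 65537233 to 65598988, plus strand, in GRCm38 by GENCODE M21) had 171, 169 and 165 CPM under pressure and 83.03, 83.95 and 81.3 CPM in controls, a 2.03-fold rise (1.02 ± 0.07, adjusted p = 7.65e-07). Its replicates were nearly equal within each group. Ube2r2, a partner of cullin ligases that extends such chains, stood at 146 ± 8.11 CPM under pressure and 153 ± 0.755 CPM in controls (-0.07 ± 0.07, adjusted p = 0.413), and was called lower with library totals (adjusted p = 0.00683). Ube2l3, the partner of HECT and RBR ligases, had 275, 272 and 266 CPM under pressure and 186, 185 and 190.3 CPM in controls (0.54 ± 0.07, adjusted p = 3.89e-05). No control came near the pressure values of Ube2l3.

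The promoter of Ube2j1 is shown with that of Usp36, since both genes rose at least 2-fold and hold TGACGT, the core of the cAMP response element, and with that of Usp21, the member that fell most, which holds no copy. They were chosen after the values were seen. Sequences are RefSeq's for GRCm38.p6, 250 bases before to 50 after the annotated start, 5′ to 3′ on the strand of the gene, with TGACGT or its reverse complement in capitals. They lie at chr4:33031130-33031429 (plus strand) for Ube2j1, chr11:118290195-118290494 (minus strand) for Usp36 and chr1:171287912-171288211 (minus strand) for Usp21.
Ube2j1: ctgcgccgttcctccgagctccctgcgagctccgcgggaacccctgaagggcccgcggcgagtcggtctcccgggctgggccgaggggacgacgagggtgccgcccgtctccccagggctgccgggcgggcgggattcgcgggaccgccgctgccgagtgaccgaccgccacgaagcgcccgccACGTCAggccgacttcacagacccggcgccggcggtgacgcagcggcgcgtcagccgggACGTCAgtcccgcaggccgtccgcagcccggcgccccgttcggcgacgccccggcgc
Usp36: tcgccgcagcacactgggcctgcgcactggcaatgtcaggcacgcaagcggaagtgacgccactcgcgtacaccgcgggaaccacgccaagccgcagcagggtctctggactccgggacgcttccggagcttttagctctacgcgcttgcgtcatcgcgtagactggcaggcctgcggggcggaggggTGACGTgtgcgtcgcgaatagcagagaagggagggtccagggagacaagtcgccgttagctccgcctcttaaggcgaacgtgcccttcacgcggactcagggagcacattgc
Usp21: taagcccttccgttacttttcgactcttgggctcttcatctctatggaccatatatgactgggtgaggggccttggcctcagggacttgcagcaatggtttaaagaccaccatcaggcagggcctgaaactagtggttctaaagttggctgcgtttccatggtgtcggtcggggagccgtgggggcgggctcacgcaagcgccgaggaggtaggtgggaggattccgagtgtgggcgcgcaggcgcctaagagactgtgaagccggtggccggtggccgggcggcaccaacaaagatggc
The Ube2j1 promoter holds 2 copies in reverse orientation, with first bases at positions -66 and -7 from the start, and Usp36 holds 1 forward copy at -62. Promoters matched 72 of the 91 members by symbol. TGACGT on either strand was in 11 of these (15.3%), and in 7.51% of all 32851 promoters in that table. The table was not limited to genes tested here, so members and all promoters are unlike sets, and enrichment was not tested. By direction it was in 5 of 31 members that rose and in 3 of 9 that fell. The E-box CACGTG was in 8 members (11.1%, against 7.15% of all promoters), with 6 of 31 that rose and 0 of 9 that fell. CCGGAA, a core bound by ETS factors, was in 20 (27.8%, against 14.9%), with 9 of 31 that rose and 2 of 9 that fell. TGATGNA, the start of the ATF4 composite site, was in 4 members (5.56%, against 12.2%) and the AP-1 site TGACTCA in 4 (5.56%, against 5.2%). Searches covered both strands, and different motifs may share bases. A match describes the letters and not a bound site.

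The 3 genes of K63-linked chain formation rose, where 33.7% of all genes rose. Ube2v1, an inactive E2 variant that pairs with the Ube2n product to build such chains, had 263, 239 and 258 CPM under pressure and 171, 185 and 167 CPM in controls (0.54 ± 0.08, adjusted p = 9.19e-05). Its groups did not overlap. Ube2n rose by 0.34 ± 0.08 and Ube2v2 by 0.31 ± 0.09, and both calls were lost with library totals. Ube2v2 was also lost with upper-quartile factors (adjusted p = 0.0762) and without control replicate 1 (adjusted p = 0.0587).

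Of 5 genes for carriers of ubiquitin-like proteins and partners of UBA6, 2 rose and 1 fell, where 33.7% of all genes rose and 35.1% fell. The NEDD8 carriers Ube2m (0.12 ± 0.08) and Ube2f (0.06 ± 0.08) did not pass and had negative values with library totals. Ube2l6, the ISG15 carrier, fell to 21.9 ± 1.21 CPM under pressure, against 31.3 ± 1.44 CPM in controls (-0.51 ± 0.09, adjusted p = 0.000559). Ube2z, which takes ubiquitin or FAT10 from the E1 enzyme UBA6, rose by 0.33 ± 0.08, though not past the threshold with library totals (adjusted p = 0.175).

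The RAD6 relatives Ube2a and Ube2b, which act in DNA damage tolerance and on histone H2B, did not pass. Ube2b had 87.98, 101 and 102 CPM under pressure and 101, 109 and 109 CPM in controls (-0.13 ± 0.08, adjusted p = 0.176), and the groups overlapped. Ube2a changed by -0.08 ± 0.08. Both were called lower with library totals and with upper-quartile factors, and Ube2b also without pressure replicate 3 (adjusted p = 0.0477). Of the mitotic genes, Ube2s, which extends chains for the anaphase-promoting complex, rose by 0.46 ± 0.10, while Ube2c, which starts them, had at most 10.4 counts in a library and was not tested. Ube2t, the E2 enzyme of the Fanconi pathway, was near the filter at 1.28 ± 0.245 CPM under pressure and 1.35 ± 0.394 CPM in controls.

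Among the remaining Ube2 genes, Ube2o, whose large product works as both conjugating enzyme and ligase, had 109, 94.3 and 78.4 CPM under pressure and 41.02, 35.1 and 37.9 CPM in controls (1.31 ± 0.12, adjusted p = 5.40e-06). Ube2cbp, at low level, had 6.54, 5.71 and 4.67 CPM under pressure and 1.798, 1.55 and 1.72 CPM in controls (1.75 ± 0.19, adjusted p = 1.66e-05). In both genes every pressure sample stood far above every control. Ube2q1 rose by 0.27 ± 0.08, which was not past the threshold with library totals or upper-quartile factors. Ube2q2 (-0.15) and Ube2ql1 (0.31 ± 0.43) did not pass. All pressure values of Ube2q2 lay below the controls, and it was called lower with upper-quartile factors (adjusted p = 0.013) and library totals (0.00224). Ube2h, the E2 enzyme of the CTLH ligase, fell by 0.25 ± 0.09 (adjusted p = 0.0247). That call was lost without pressure replicate 1 or 2 (adjusted p = 0.0876 and 0.0836) and without any one control (adjusted p from 0.0559 to 0.086).

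**Figure D3:**
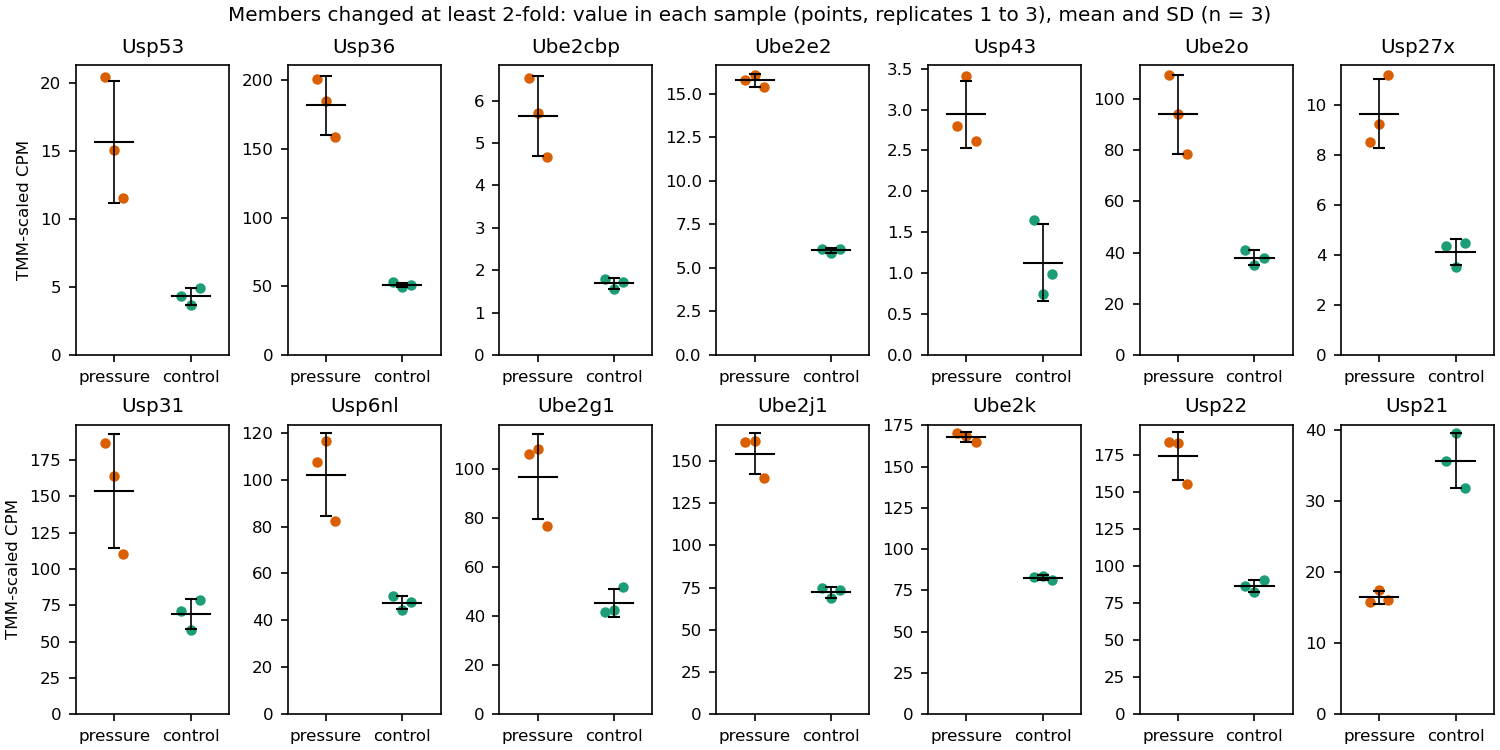
CPM (TMM-scaled) in each sample for the 14 members that changed at least 2-fold, pressure left and control right, with the mean and SD of each group (n = 3). The groups do not overlap in any of the 14, and Usp21 is the one that is lower under pressure.

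Usp53 and Usp36 had the largest log2 changes of the 75 tested members. Usp36, a nucleolar deubiquitinase (chromosome 11, 118259651 to 118290244, minus strand), had 201, 185 and 158 CPM under pressure and 52.8, 49.4 and 50.5 CPM in controls (1.83 ± 0.10, adjusted p = 1.86e-07), a 3.57-fold difference. Usp53, whose product is found at tight junctions (chromosome 3, 122931493 to 122984510, minus strand), had 20.5, 15.1 and 11.5 CPM under pressure and 4.35, 3.68 and 4.96 CPM in controls (1.88 ± 0.21, adjusted p = 2.06e-05). The pressure samples of Usp53 differed among themselves by more than those of Usp36 relative to their mean, with replicate 3 lowest in both. Usp54, the nearest relative of Usp53, fell by 0.32 ± 0.11 (adjusted p = 0.0246), a call lost without pressure replicate 2, control replicate 1 or control replicate 3 (adjusted p = 0.0593, 0.0863 and 0.0713).

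Of 6 tested genes for deubiquitinases of histones, 5 rose and 1 fell, where 33.7% of all genes rose and 35.1% fell. Usp22, the deubiquitinase of the SAGA coactivator complex, had 183, 183 and 155 CPM under pressure and 86.2, 82.3 and 90.4 CPM in controls (1.01 ± 0.09, adjusted p = 3.51e-06). Usp27x, an X-linked relative that shares adaptor proteins with it, had 8.54, 9.24 and 11.2 CPM under pressure and 4.35, 3.52 and 4.49 CPM in controls (1.22 ± 0.16, adjusted p = 5.64e-05). Neither gene's groups overlapped. Usp49 (0.90 ± 0.20), Usp3 (0.64 ± 0.09) and Usp16 (0.50 ± 0.07), which act on histone H2B or H2A, rose as well. Usp21, which acts on histone H2A and on cytoplasmic substrates (chromosome 1, 171281945 to 171287991, minus strand), had 15.8, 17.5 and 16.1 CPM under pressure and 35.7, 39.6 and 31.9 CPM in controls (-1.12 ± 0.11, adjusted p = 7.24e-06). All its pressure values were far below the lowest control.

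The tested genes of the free chain and proteasome group, Usp14 and Usp5, rose. Usp14, whose product trims ubiquitin on the proteasome, had 147, 166 and 146 CPM under pressure and 96.02, 96.6 and 98.3 CPM in controls (0.66 ± 0.08, adjusted p = 3.14e-05). Usp5, which takes apart unanchored chains, had 162, 156 and 151 CPM under pressure and 113, 117 and 102 CPM in controls (0.49 ± 0.08, adjusted p = 0.000242). Their groups did not overlap, whereas Usp13, a relative of Usp5, had at most 2 counts in a library and was not tested.

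Of 6 genes of the nucleolus, p53 pathway and splicing, 5 rose, Usp36 among them, where 33.7% of all genes rose. Usp7, which stabilises p53 and its ligase MDM2, had 238, 233 and 191 CPM under pressure and 160.1, 152 and 162 CPM in controls (0.48 ± 0.09, adjusted p = 0.000853). All pressure samples were above the controls. Usp10, a partner of the stress granule protein G3BP1, rose by 0.56 ± 0.10 and Usp39 by 0.44 ± 0.07. Usp2, at low level, had 1.68, 2.61 and 3.77 CPM under pressure and 1.499, 1.55 and 0.991 CPM in controls (0.94 ± 0.31, adjusted p = 0.0197). Its lowest pressure value lay just above the highest control. That call was lost with library totals (adjusted p = 0.0603) and without pressure replicate 2 (0.0505) or control replicate 3 (0.0737). Usp42 (0.22 ± 0.14) did not pass, except without pressure replicate 3 (0.35, adjusted p = 0.00331).

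Among the enzymes that share a DUSP domain, Usp4 had 180, 174 and 178 CPM under pressure and 144, 139 and 147 CPM in controls (0.31 ± 0.07, adjusted p = 0.00225), a call lost with library totals. Its groups were apart. Usp15, whose product can enhance TGF-beta signalling, stood at 90.3 ± 5.29 CPM under pressure and 91.5 ± 3.99 CPM in controls (-0.02 ± 0.08, adjusted p = 0.841), and was called lower with library totals (adjusted p = 0.0194). Usp11 had 1.68, 1.64 and 2.46 CPM under pressure and 2.997, 3.68 and 1.98 CPM in controls (-0.63 ± 0.27, adjusted p = 0.0579), and the groups overlapped. It was called lower with upper-quartile factors (adjusted p = 0.0335), library totals (0.0167), all genes kept whatever their count (0.0395), and without pressure replicate 3 (0.00855) or control replicate 3 (0.0192).

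Of 6 genes of endosomes, receptors and the secretory pathway, 3 fell and 1 rose with TMM factors, where 35.1% of all genes fell. Usp8, which acts on endosomes with the ESCRT machinery, fell to 81.8 ± 8.15 CPM under pressure, against 107 ± 5.71 CPM in controls (-0.39 ± 0.09, adjusted p = 0.00305). The related Usp20 and Usp33, which act on membrane receptors among other substrates, fell by 0.61 ± 0.14 and 0.33 ± 0.10. Usp19, anchored in the endoplasmic reticulum, had 155, 139 and 122 CPM under pressure and 152, 147 and 144 CPM in controls (-0.09 ± 0.09, adjusted p = 0.403). Its groups overlapped, and it was called lower with library totals (adjusted p = 0.00791). The one rise in this group was Usp6nl, the Rab GTPase activator and no deubiquitinase, with 107, 117 and 82.4 CPM under pressure and 50.4, 44.5 and 47.9 CPM in controls (1.10 ± 0.12, adjusted p = 1.85e-05). Pressure replicate 3 was its lowest pressure sample and still above each control.

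Usp1, Usp12 and Usp46 share the activating partner WDR48 and moved differently. Usp1 rose by 0.52 ± 0.07, Usp46 fell by 0.58 ± 0.11 and Usp12 did not pass (-0.18 ± 0.09, adjusted p = 0.0842), although it was called lower with library totals, with upper-quartile factors and without pressure replicate 1. The mitochondrial Usp30, which opposes mitophagy, rose by 0.60 ± 0.11 and Usp35 by 0.79 ± 0.16. Usp31, whose human counterpart restrains NF-kB signalling, had 186, 164 and 110.4 CPM under pressure and 70.7, 57.6 and 78.4 CPM in controls (1.16 ± 0.18, adjusted p = 0.000171). Its relative Usp43 had 2.804, 3.404 and 2.62 CPM under pressure and 1.65, 0.747 and 0.991 CPM in controls (1.37 ± 0.28, adjusted p = 0.00139). The groups did not overlap in either gene, with the pressure samples of Usp31 widely spread. Usp37 (0.31 ± 0.10) and Usp38 (0.36 ± 0.09) rose, neither past the threshold with library totals, and Usp37 was also lost with upper-quartile factors and without control replicate 2 or 3 (adjusted p = 0.052 and 0.0512). Usp40 fell by 0.49 ± 0.11 and Usp45 by 0.51 ± 0.12. Usp25 (0.07), Usp28 (-0.04) and Usp48 (0.01) did not pass.

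Transcript length moved with the spread between samples of a group. The tested Usp genes have a median transcript length of 4517 bases and the Ube2 genes of 1664 bases. Among 32 members of at least 4000 bases, pressure replicate 3 was the lowest pressure sample in 29, with a median log2 difference of -0.28 to the other 2. Among 43 shorter members it was lowest in 16, with a median of 0.002. Control replicate 2 was the lowest control in 23 of the long members (median -0.10). Over all 3133 genes of at least 4000 bases the medians were -0.22 for pressure replicate 3 and -0.10 for control replicate 2. The part of this length pattern in the results was not tested beyond leaving out each sample.

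**Figure D4:**
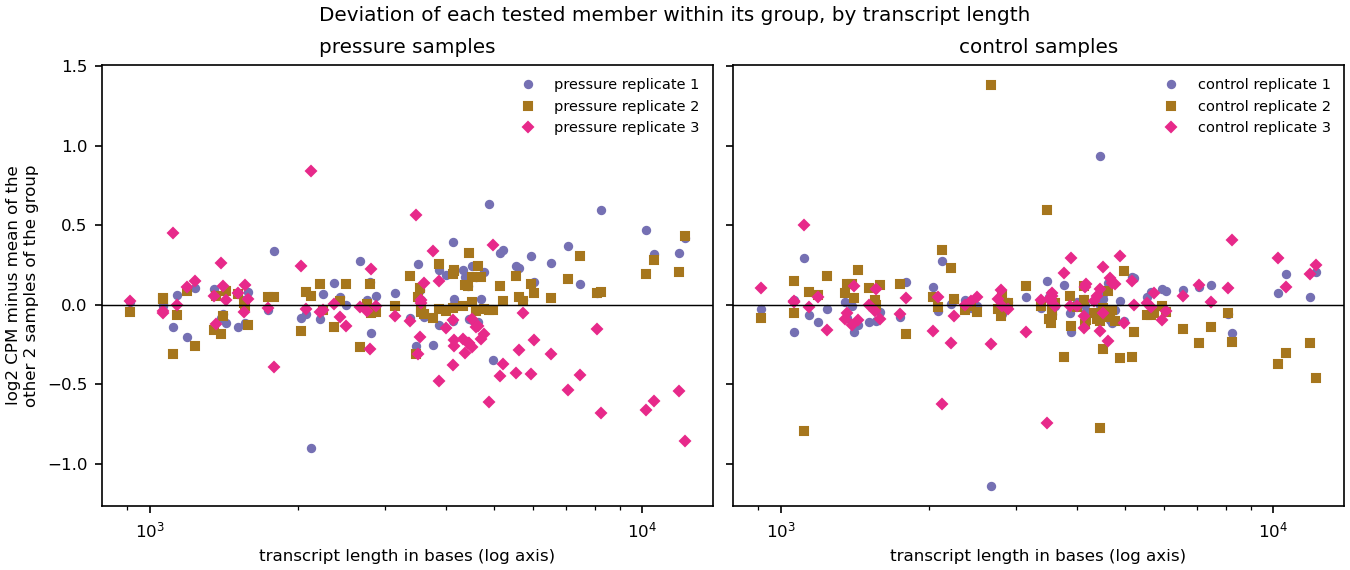
Log2 difference of each tested member in a sample to the other samples of its group, against transcript length in bases on a log axis, with pressure samples left of control samples. Points of pressure replicate 3 fall below 0 at the long end, where 29 of 32 members of at least 4000 bases are lowest in that sample.

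The genes of the very large enzymes include some whose calls depended on pressure replicate 3. Usp34, whose product can stabilise axin in WNT signalling, had 150.2, 151 and 83.4 CPM under pressure and 125, 91.7 and 127 CPM in controls (0.17 ± 0.20, adjusted p = 0.487). Usp9x, a regulator of many substrates including endocytic proteins, had 221, 209 and 148 CPM under pressure and 159.5, 139.6 and 171 CPM in controls (0.30 ± 0.14, adjusted p = 0.0732). In Usp9x replicate 3 alone brought the pressure group into the range of the controls, and in Usp34 it was the lowest of all samples. Without pressure replicate 3, Usp34 (0.40, adjusted p = 0.000341), Usp9x (0.46, adjusted p = 3.35e-06), Usp24 (0.28, adjusted p = 0.00349) and Usp32 (0.39, adjusted p = 6.34e-05) were called higher. In all, 28 Usp genes were then higher and 9 lower, against 23 and 8 with all samples. Over all genes, that fit also called more genes in each direction than the fit with all samples. The median log2 change of Usp genes was 0.43 in that fit, against 0.31 with all samples. For Ube2 genes it was 0.40, against 0.42 with all samples, and over all genes it was -0.02 in both fits. Calls were thus gained outside the Usp genes too, but among these sets the median rose for Usp genes alone. Whether Usp genes gained more calls than other genes was not tested. With all samples DESeq2 called Usp9x higher (adjusted p = 0.0441). Usp47 rose with all samples (0.38 ± 0.11), a call that library totals ended (adjusted p = 0.171).

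Ratios of related genes within a sample do not depend on library scaling. Of 24 pairs with both genes tested, 15 (62.5%) had pressure and control values that did not overlap. This share counts both directions. For single genes, all pressure samples lay above all controls in 34.9% of all tested genes and below in 37%, which together exceed the share of pairs. No share over other gene pairs was computed. The ratios are of TPM, so they include transcript length, which cancels in the differences between groups. With 3 samples against 3 the exact permutation test cannot go below p = 0.1 (two-sided, adjusted p = 0.16 over the 24 pairs), so the ratios are given as sizes. The log2 ratio of TPM of Usp53 to Usp54 was -0.26 ± 0.23 under pressure and -2.42 ± 0.15 in controls (SD, n = 3 each). The TPM ratio of Usp36 to Usp42 (log2) was 2.51 ± 0.09 under pressure and 0.89 ± 0.16 in controls. The TPM ratio of Usp16 to Usp45 (log2) was 2.98 ± 0.25 under pressure and 1.95 ± 0.05 in controls. In these 3 pairs no pressure sample reached the range of the controls. The ratio of Usp2 to Usp21 differed by 2.06 between the groups, with a wide spread under pressure. Among E2 genes, the log2 ratio of TPM of Ube2l3 to Ube2l6 was 2.81 ± 0.10 under pressure and 1.76 ± 0.05 in controls. Ube2e2 stood higher against Ube2e3 under pressure (difference 0.77), and Ube2d1 stood lower against Ube2d3 (difference -0.56). Pairs whose values overlapped included Ube2a with Ube2b (0.05), Ube2f with Ube2m (-0.07), Ube2g1 with Ube2g2 (0.30), Usp22 with Usp27x (-0.22) and Usp25 with Usp28 (0.10).

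**Figure D5:**
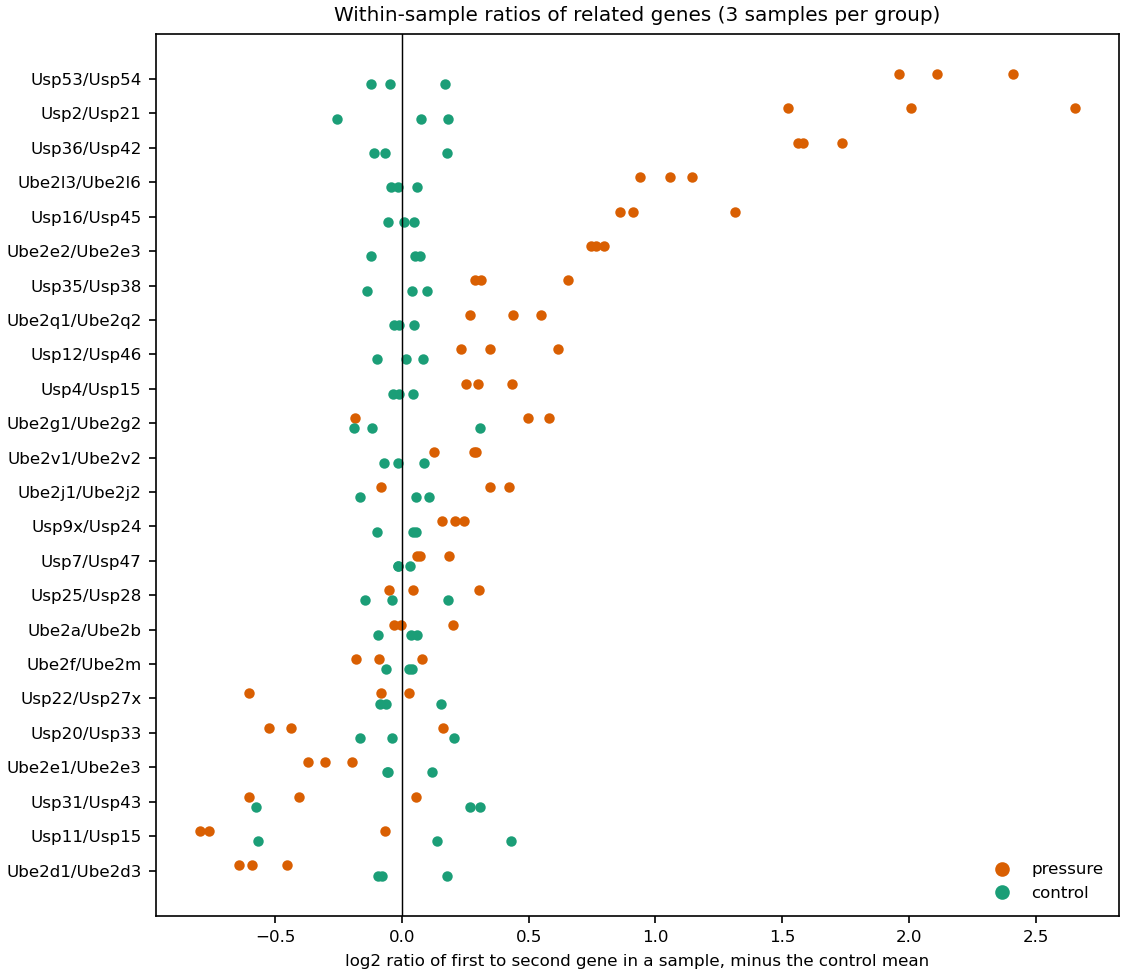
Log2 ratio of TPM of the first to the second gene of 24 related pairs in each sample, minus the control mean of the pair, for pressure and control samples. The pressure points of Usp53/Usp54, Usp2/Usp21 and Usp36/Usp42 lie farthest from their controls, with differences of 2.16, 2.06 and 1.63.

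Summed over the tested members, Ube2 genes held 4085, 4018 and 3982 CPM under pressure and 2728, 2800 and 2758 CPM in controls, a ratio of means of 1.46, or 1.26 with library totals. Usp genes summed to 3677, 3577 and 2979 CPM under pressure and 2705, 2537 and 2738 CPM in controls, a ratio of 1.28, or 1.10 with library totals. The Ube2 sums were tight within each group, and the Usp sum of pressure replicate 3 stood below the other 2.

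The 16 untested members had few or no counts. The highest was Ube2c, followed by Usp17la with at most 5.5 counts in a library and Usp50 with at most 4. Usp44, Usp13, Ube2d2b, Ube2u, Usp17lb, Usp51 and Usp29 had at most 3, and Usp17lc, Usp17ld, Usp17le, Usp26, Ube2dnl1 and Ube2dnl2 had none in any library. A count of 0 in a library still allows an expected count above 0, so low expression of these genes cannot be told from none. The Usp17l genes are near-identical copies, so their values are uncertain. Of the tested members 31 had a fractional count in at least 1 library, among them Ube2d3, Ube2j1, Ube2k and Usp21. Such fractions can arise where reads are split between similar sequences, which the files do not show.

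The rest of the pathway was read from lists chosen with earlier results of these data known. Beside each list stand the shares over all tested genes, 33.7% higher and 35.1% lower. With library totals those shares were 24.3% and 45.7%. Of 11 ubiquitin and ubiquitin-like genes 9 were higher and 1 was lower under pressure (median 0.41 on the log2 scale). The polyubiquitin gene Ubb stood at 2175 ± 80.6 CPM under pressure and 868 ± 35.7 CPM in controls (1.33 ± 0.06, adjusted p = 1.09e-07). Its ubiquitin repeats are alike in other ubiquitin genes, so its reads may be shared with them. Ufm1, a ubiquitin-like protein gene, rose by 1.08 ± 0.08. Of 9 E1 enzymes and partners 4 rose and 4 fell, and the smallest p-values were those of falls in Uba7, the E1 enzyme for ISG15 (-1.76 ± 0.10), Uba6 (-1.01 ± 0.12) and Nae1 of the NEDD8 pathway (-0.79 ± 0.11). Of 8 E2 enzymes and variants with other names 3 rose (37.5%) and 4 fell (50%), with Uevld at -1.53 ± 0.11 and Aktip at -1.12 ± 0.11.

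Among ligases, 9 of 24 tested HECT genes rose (37.5%) and 11 fell (45.8%), against 33.7% and 35.1% of all tested genes. Nedd4 stood at -0.92 ± 0.08, Nedd4l at 1.29 ± 0.13 and Herc6, an ISG15 ligase in mouse, at -1.72 ± 0.12. Of 13 RBR genes 4 rose (30.8%) and 6 fell (46.2%), with Arih2 at 0.73 ± 0.08, Rnf14 at -0.78 ± 0.09 and Rnf144b at -1.19 ± 0.13. The core of cullin ligases had 10 higher and 4 lower of 20, with Cul5 at 0.77 ± 0.10 and Cul4a at -0.71 ± 0.09, but 4 higher and 6 lower with library totals. Among other deubiquitinase classes, OTU genes had 9 higher and 1 lower of 14. Tnfaip3, which encodes the NF-kB inhibitor A20, stood at 322 ± 41.8 CPM under pressure and 119 ± 10.3 CPM in controls (1.44 ± 0.11, adjusted p = 1.19e-06). The list of UCH, Josephin, MINDY and ZUFSP genes had 4 higher and 8 lower of 13, and Uchl1 stood at 208 ± 19.2 CPM under pressure and 56.8 ± 3.72 CPM in controls (1.87 ± 0.09, adjusted p = 1.32e-07). The JAMM list had 7 higher and 2 lower of 12, with Stambpl1 at 1.16 ± 0.13 and the proteasome subunit Psmd14 at 0.63 ± 0.08. That list goes by protein domain and includes genes not known to encode active deubiquitinases, such as Psmd7, Cops6 and Prpf8. SUMO and NEDD8 proteases had 5 higher and 3 lower of 10, with Senp7 at -2.49 ± 0.17 and Senp6 at 0.99 ± 0.11. Of 13 genes of partners of USP enzymes 7 rose and 2 fell, with G3bp1 at 0.82 ± 0.06, Ptpn23 at 0.77 ± 0.08 and Eny2, an adaptor of Usp22, at 0.80 ± 0.09.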

How the data were processed

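The authors deposited expected counts per gene symbol, estimates that are not always whole, for 6 libraries. Per the labels' protocols they came from a stranded mRNA kit with single reads of 101 bases. TopHat2 2.2.1, Cufflinks 2.2.1 and mm10 are named in the submitters' processing notes. For the counting step, its use of strand and the gene models the sources used here give nothing, so antisense or overlapping genes may share reads. Counts were rounded, filtered with filterByExpr (minimum count 10, minimum total 15), scaled by TMM factors and tested with edgeR 4.0.16 quasi-likelihood F-tests in R 4.3.3, two-sided and without covariates. The script was tested on simulated data. The SE is the log2 change over the square root of F. TPM used the median length of protein-coding transcripts of a gene in GENCODE M21 (98.39% of symbols). No libraries of a group agreed within sampling noise (chi-square per degree of freedom at least 3.034). That value was 24 and 17.23 for pressure replicate 3 against pressure replicates 1 and 2, and at most 6.008 for all other pairs. Members, role groups, pairs, motifs and lists were chosen with earlier results of these data known.

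Values in every sample are given for members past the threshold that changed at least 2-fold with a mean of at least 1 CPM, the 5 of each family with the highest TPM, and those with a log2 change of at least 0.5 whose call depended on the processing. Usp34 and Usp9x were added after their values were seen. From each other list up to 3 genes with the smallest p are named. Results of some genes that these rules select are not reported here. Alternatives were RLE, upper-quartile and no composition factors, DESeq2 1.42.0, limma-voom (limma 3.58.1), other count filters, a block for the sample number, and leaving out each sample.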

Additional observations from a re-analysis of the deposited data

How the results depend on the processing

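Of the 55 called members 40 kept their call and sign under all 14 alternatives, 32 higher and 8 lower. Ube2cbp and Usp43 kept theirs under 13, the filter at a mean of 5 CPM having removed them, as it did Usp2. None of the 55 changed sign under an alternative in which it was tested. Deviations of same-numbered samples from their group means correlated at 0.129, -0.23 and -0.134. With 3 samples a group, such correlations cannot tell whether same-numbered samples shared an animal or culture. With the sample number as a replicate block 22 Ube2 genes were higher and 2 lower, and 23 Usp genes were higher and 8 lower, as without it. With library totals 6 Ube2 and 13 Usp genes were lower, and with upper-quartile factors 5 Ube2 genes were lower, since these factors lower all log2 changes. Leaving out 1 sample gave 1 to 3 lower Ube2 genes. The log2 ratio of summed levels, 0.55 for Ube2 and 0.36 for Usp genes, was 0.33 for Ube2 and 0.14 for Usp genes with library totals, and 0.31 and 0.15 with TPM, which lacks the composition factor too. With library totals, counts in other lists moved to 1 higher for E2 enzymes with other names, 4 higher for the cullin core, 3 lower for OTU, 2 higher for UCH and related, 4 higher for JAMM, and 2 higher for SUMO and NEDD8 proteases.

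Signs turned in 11 members, none of them called. With library totals Ube2f was -0.158, Usp34 -0.052, Usp25 -0.150, Usp24 -0.116, Usp48 -0.209 (adjusted p = 0.0255), Usp42 -0.001 and Ube2m -0.093. With upper-quartile factors Ube2f was -0.058, Usp25 -0.049, Usp24 -0.015 and Usp48 -0.108. Usp15 was 0.003 with RLE and 0.004 with DESeq2, and Usp48 was -0.014 with no filter and -0.009 with a mean of at least 5 CPM. Leaving out 1 sample, log2 changes lay between -0.317 and 0.056 for Ube2t, -0.042 and 0.032 for Usp15, -0.038 and 0.934 for Ube2ql1, -0.006 and 0.126 for Usp25, -0.014 and 0.028 for Usp48, and -0.105 and 0.002 for Usp28. The cause of these turns was not tested. Depth limits what can be said of the 16 untested members, and 3 samples a group limit the pair ratios.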
